A study of Mus musculus with 72 samples.

Results

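The livers of wild-type (WT) C57BL/6 mice were compared at 2 zeitgeber times (ZT, counted in hours from lights on), ZT16 in the dark phase and ZT4 in the light phase. The arrays were chosen by the strain, genotype and time in their labels, which gave 3 arrays at ZT16 and 3 at ZT4, so 6 of the 72 arrays of the series. The mice were kept in a cycle of 12 h of light and 12 h of darkness, and total RNA of flash-frozen liver was hybridised to single-colour Affymetrix arrays, 1 sample per array. Livers were taken every 4 h, and the series asks how the sirtuins SIRT1 and SIRT6, NAD-dependent deacylases, bear on the daily cycle of liver transcripts. Livers of ZT16 and ZT4 were also read in 3 further sets of 6 arrays each, namely C57BL/6 mice labelled as liver-specific SIRT1 knockouts (KO), mice of a background labelled 129 mixed that carry the liver-specific SIRT6 KO label, and WT mice of that mixed 129 background. The sources used here do not give the driver of the deletions, nor the sex and age of the mice. The labels do not say that replicates came from separate mice, so every p-value measures only how far these samples spread, which may be technical, and the small number of arrays limits their precision.

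The mammalian clock is a feedback loop of transcription. The activators CLOCK, its relative NPAS2 and BMAL1 (gene symbol Arntl) bind E-box sequences and switch on the Per and Cry genes, whose proteins then block the activators. The REV-ERB receptors (Nr1d1 and Nr1d2) repress Arntl and Npas2 in turn, and the PAR bZIP factors DBP, TEF and HLF carry the rhythm to D-box genes. In the liver this loop meets daily signals from feeding, body temperature and glucocorticoids, which drive many metabolic and chaperone genes. Mice feed mainly in the dark.

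The 6 arrays had median intensities of 47.6 to 53.2 and correlated at 0.9765 to 0.9879 within a time and at 0.9640 to 0.9814 between the times, over all genes tested. No pair of arrays held identical values. One array stood apart. Over 17 clock genes, ZT4 replicate 3 lay on average 0.68 from the ZT0 mean and 1.78 from the ZT8 mean (log2 intensity), whereas ZT4 replicates 1 and 2 lay 1.28 and 1.05 from the ZT0 mean and 1.11 and 1.31 from the ZT8 mean. Results that rest on this array are given with and without it. Of 9 hepatocyte markers, which included albumin and transthyretin, 1 was called, Hnf4a, which was higher at ZT16. Only 2 of the 9 had a higher mean at ZT16. Their summed intensity was 59708 to 62516 at ZT16 and 63120 to 63406 at ZT4, without overlap. Of 10 Kupffer cell markers limma called 0, with 0 at an unadjusted p under 0.05 (19.7% of all genes tested were under it), with sums of 2591 to 4444 at ZT16 and 3494 to 3868 at ZT4, and all 7 neutrophil markers lay under the filter on low values, which is set on the mean over 72 arrays. Their part in the results below was not tested, and in bulk liver fewer cells of a type cannot be told apart from less RNA per cell. Neither targeted gene read lower in the arrays of its KO label. The Sirt1 probe set read 8.74 ± 0.11 in arrays labelled SIRT1 KO and 8.74 ± 0.18 in their WT arrays, and the Sirt6 probe set read 7.89 ± 0.10 in arrays labelled SIRT6 KO and 7.32 ± 0.18 in theirs (log2 intensity, SD, n = 18 each). The Sirt6 readings did not overlap between the labels and were higher under the KO label, at 7.76 to 8.07 against 7.01 to 7.60. The position of these probes relative to the deleted parts is unknown here, so the check settles nothing about the labels.

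At ZT16, 831 of 13308 genes tested differed from ZT4 (6.24%), 479 higher (3.6%) and 352 lower (2.65%). A gene was called at an adjusted p under 0.05 in limma's moderated test, Benjamini-Hochberg adjusted over all genes, and differences are given as log2(intensity + 16), a scale that compresses the change of dim genes. The median size of a called difference was 0.52, against 0.13 over all genes. Differences of 1.5-fold or more were found in 183 higher (1.38%) and 131 lower genes (0.984%). At least 2-fold differences were found in 49 genes that were higher (0.368%) and 27 that were lower (0.203%). The 3 arrays at ZT16 and the 3 at ZT4 did not overlap in 798 of the called genes, and in 20.8% of all genes tested. Without ZT4 replicate 3, 425 genes were called, 202 higher and 223 lower, of which 379 were among the 831. Without ZT16 replicate 2 there were 457, 269 higher and 188 lower. Without ZT16 replicate 1 the higher calls numbered 318, and without ZT4 replicate 2 the lower calls numbered 206. The 24 leading genes below have the largest differences among called genes whose arrays did not overlap. Of these the calls of Thrsp, Aqp8, Cyp3a25 and Egr1 were lost without some single array, as given below.

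The largest rise was in Usp2, a deubiquitinase gene under clock control. Its log2 intensity was 9.60, 9.76 and 10.13 at ZT16, against 7.00, 6.90 and 5.64 at ZT4. The difference was 3.32 ± 0.28 (SE), 9.96-fold, with an adjusted p of 3.7e-09 in limma's test, and it was 2.88 without ZT4 replicate 3. Mfsd2a, which encodes a transporter of lysophosphatidylcholine that carries docosahexaenoic acid, read 10.89, 10.88 and 10.67 at ZT16 and 7.84, 8.70 and 8.32 at ZT4. Every array at ZT16 lay above every array at ZT4, as the choice of the leading genes required, and the fold was 5.77. Wee1, the kinase that holds back entry into mitosis, was 4.70-fold higher, with 8.28, 8.46 and 8.61 at ZT16 and 6.12, 6.68 and 5.85 at ZT4. The Polo-like kinase Plk3 rose 4.39-fold and Acot3, a peroxisomal acyl-CoA thioesterase, 5.07-fold. Acot3 was also the most variable of the leading risers, since its ZT4 arrays spanned 5.21 to 6.80. Lonrf3, a RING finger gene, rose 3.21-fold, Thrsp (Spot 14, a lipogenic nuclear protein) 3.18-fold and Ppp1r3b, the liver targeting subunit that directs protein phosphatase 1 to glycogen, 3.00-fold. The call of Thrsp was lost without ZT4 replicate 3, at a difference of 1.33 and an adjusted p of 0.055 in limma's test. The other 4 of the 12 leading risers, namely Hspa1b, Per1, Ciart and Cry1, belong to the chaperone and clock lists below.

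The largest fall was in Nr1d1, which encodes REV-ERB alpha. It read 7.59, 7.67 and 8.13 at ZT16, against 11.12, 11.19 and 10.88 at ZT4, a difference of −3.27 ± 0.24 with an adjusted p of 3.7e-10 in limma's test. Depp1, a target of FOXO factors that rises in fasting, read 9.03, 8.21 and 8.54 at ZT16 and 11.03, 10.93 and 11.10 at ZT4. Arrdc3, an arrestin domain gene that insulin represses, read 9.09, 8.39 and 9.36 at ZT16 and 11.52, 11.13 and 10.82 at ZT4. Depp1 was 5.37-fold and Arrdc3 4.62-fold lower at ZT16, with differences of −2.43 ± 0.43 and −2.21 ± 0.46. The arrays of the 2 times did not overlap, as the choice of these genes required. Rfx4, a regulatory factor X gene, fell by 1.78, Spata22, a meiotic recombination gene, by 1.42, Aqp8, an aquaporin of hepatocytes, by 1.41, Camk1d, a calcium/calmodulin-dependent kinase, by 1.35 and Inca1, a cyclin A1 interactor, by 1.35. The call of Aqp8 was lost without ZT4 replicate 3 (adjusted p of 0.073, limma), and also without ZT4 replicate 2, ZT16 replicate 1 or ZT16 replicate 2. 2 further falls rested largely on 1 array each. Cyp3a25, a cytochrome P450, read 10.02, 9.84 and 7.17 at ZT16 and 10.74 to 11.01 at ZT4, so that ZT16 replicate 3 stood far below all others. The difference of −1.85 was −0.93 without that array (adjusted p of 0.33, limma), and the call was lost without any single ZT4 array as well. Egr1, an immediate early zinc finger factor, read 6.19, 5.74 and 5.16 at ZT16 and 6.58, 6.40 and 9.31 at ZT4, and its difference of −1.74 was −0.80 without ZT4 replicate 3 (adjusted p of 0.37, limma). The call of Egr1 was also lost without ZT16 replicate 2 or 3.

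**Figure D1:**
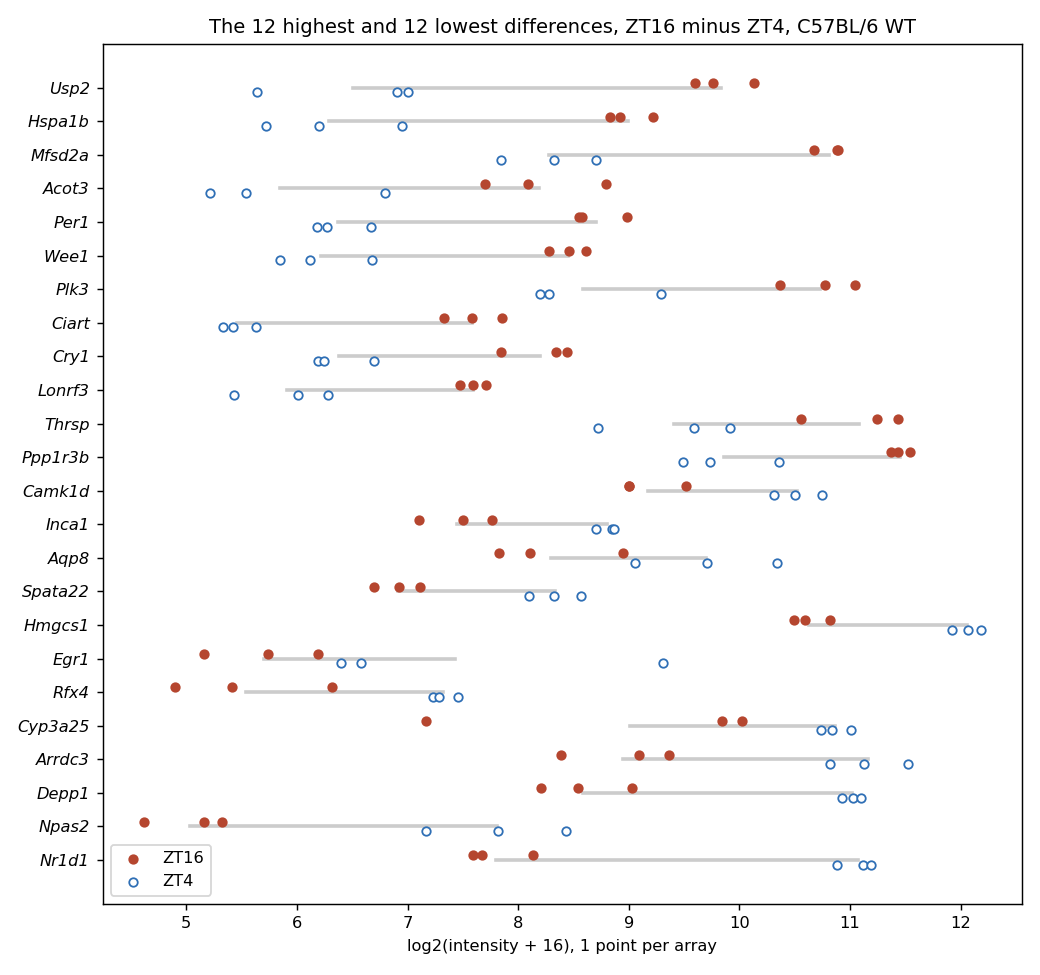
Log2(intensity + 16) of the 12 genes with the highest and the 12 with the lowest differences among called genes whose groups do not overlap, with 1 point per array, ZT16 filled and ZT4 open, and a grey bar between the means of 3 arrays each. Usp2 (means of 9.83 at ZT16 and 6.51 at ZT4) and Nr1d1 (7.80 at ZT16 and 11.07 at ZT4) are the outermost genes, and single arrays stand off for Cyp3a25 at ZT16 and Egr1 at ZT4.

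The clock list shows which phases of the loop these 2 times catch. Among 9 measured clock repressors, 5 rose and 1 fell at ZT16, with a median difference of 1.12, against −0.004 over all genes tested. Per1 read 8.55, 8.98 and 8.58 at ZT16 and 6.27, 6.18 and 6.67 at ZT4, a 5.04-fold rise (adjusted p of 1.5e-06, limma). Per3 read 8.25, 8.03 and 8.27 at ZT16 and 7.13, 6.98 and 5.88 at ZT4, a rise of 1.52 ± 0.25, or 1.13 without ZT4 replicate 3. For both measured Period genes, whose proteins carry the inhibitory complex, every array at ZT16 was above every array at ZT4. Per2, the remaining Period gene, had no probe set with 1 symbol and was not measured. Cry1, the cryptochrome repressor that appears late in the cycle, read 8.34, 8.44 and 7.84 at ZT16 and 6.19, 6.70 and 6.24 at ZT4, a rise of 1.83 ± 0.16. Ciart (CHRONO), a repressor that binds BMAL1, read 7.85, 7.58 and 7.33 at ZT16 and 5.63, 5.42 and 5.33 at ZT4, a rise of 2.12 ± 0.20. Bhlhe40 (DEC1), which competes for E-boxes, was 2.17-fold higher, and its call was lost without ZT4 replicate 3 (0.75, adjusted p of 0.12, limma). Cry2 differed by 0.44 ± 0.14 (adjusted p of 0.062, limma) and its arrays overlapped. Nr1d2, the second REV-ERB, averaged 9.97 ± 0.03 at ZT16 and 10.15 ± 0.29 at ZT4 (SD, n = 3 each), and was not called. Bhlhe41 (DEC2) was not called either, with a difference of −0.29 ± 0.37.

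Of the 3 activators, 1 was called. Npas2 read 5.16, 5.32 and 4.62 at ZT16 and 7.17, 7.82 and 8.43 at ZT4, a fall of −2.78 ± 0.28 (6.86-fold, adjusted p of 7.4e-08, limma). The core pair Arntl and Clock was not called. Arntl read 8.69, 8.85 and 8.28 at ZT16 and 7.93, 8.73 and 9.38 at ZT4, and Clock averaged 10.36 ± 0.10 at ZT16 and 10.53 ± 0.11 at ZT4 (SD, n = 3 each). The difference of Arntl was −0.07 ± 0.28, and its sign turned without ZT4 replicate 3 (0.28) and without ZT16 replicate 3 (0.09). The 6 times place these values on the daily curve. Arntl averaged 9.45 (ZT0), 8.68 (ZT4), 5.86 (ZT8), 6.20 (ZT12), 8.60 (ZT16) and 9.23 (ZT20), so that ZT16 lay on its rising and ZT4 on its falling flank. Nr1d1 averaged 8.12 (ZT0), 11.07 (ZT4), 10.76 (ZT8), 9.23 (ZT12), 7.80 (ZT16) and 6.23 (ZT20). Its highest mean was at ZT4, and its lowest was at ZT20 rather than ZT16.

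Of 5 output factors, 2 rose. Dbp, which is highest at ZT8 with a mean of 10.59, read 8.56, 8.11 and 8.86 at ZT16 and 9.47, 8.88 and 7.07 at ZT4. All 3 arrays at ZT16 lay within the range of the ZT4 arrays, and the difference was 0.04 ± 0.35 with all arrays and −0.66 without ZT4 replicate 3 (adjusted p of 0.20, limma). Tef read 9.16, 8.94 and 9.04 at ZT16 and 8.62, 8.57 and 7.63 at ZT4, a rise of 0.78 ± 0.16 that was 0.46 without that array, and a second, dimmer probe set of Tef gave 0.06. Hlf rose by 0.49 ± 0.12, a call lost without ZT4 replicate 3 (0.33, adjusted p of 0.15, limma) or ZT16 replicate 3. Nfil3 (E4BP4), which opposes DBP at D-boxes, and Rora, which opposes the REV-ERBs, differed by 0.26 ± 0.21 and 0.16 ± 0.11 and were not called.

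**Figure D2:**
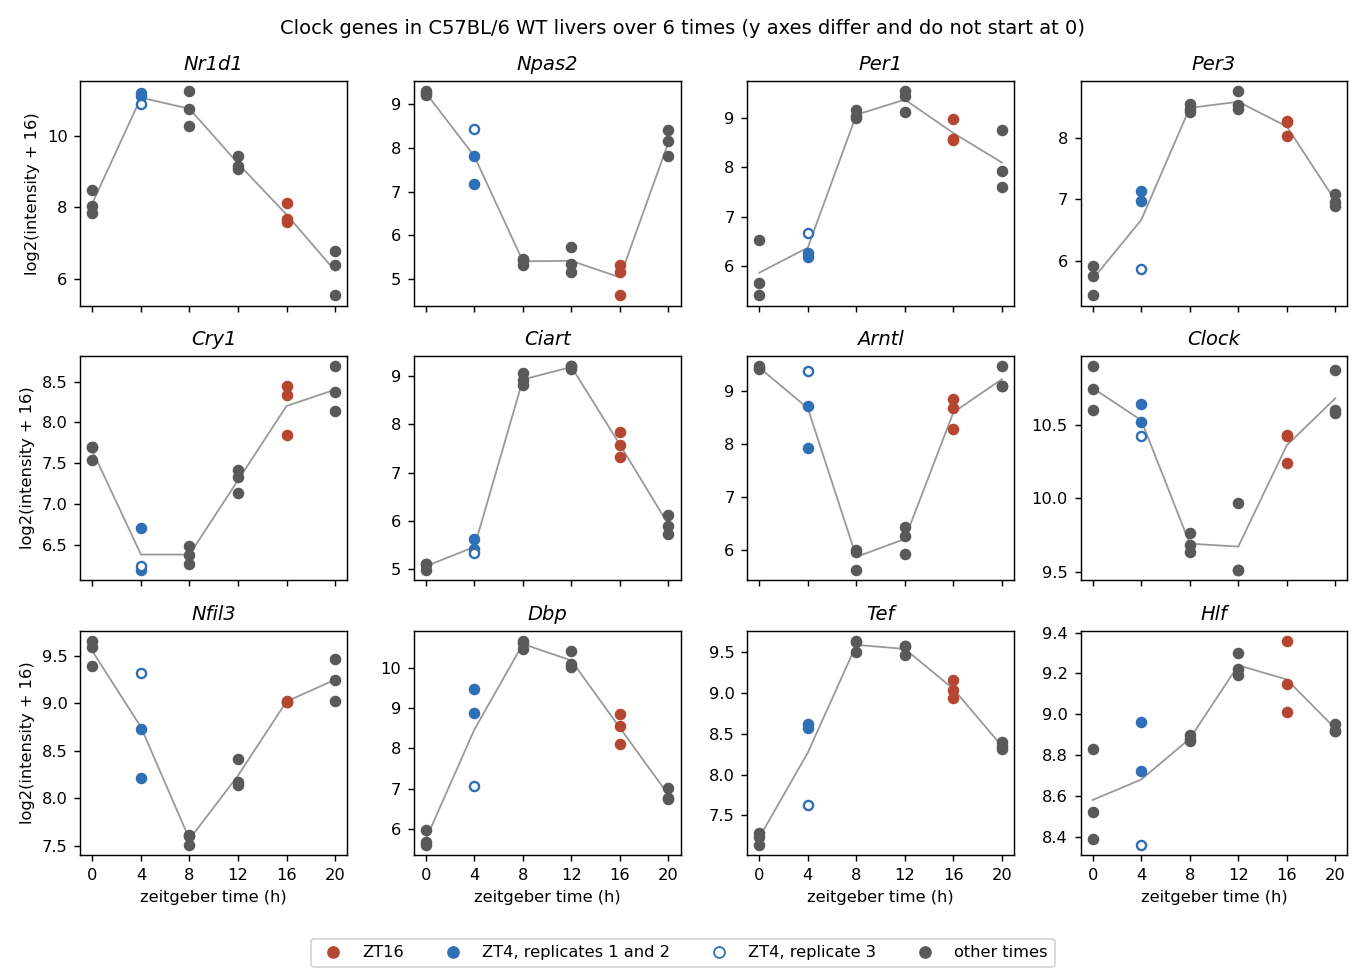
Log2(intensity + 16) of 12 clock genes in C57BL/6 WT livers by zeitgeber time in hours, with 1 point per array and a line through the means of 3 arrays, ZT16 in red, ZT4 in blue (replicate 3 open). Nr1d1 has its highest mean at ZT4 (11.07), Ciart at ZT12 (9.19) and Cry1 at ZT20 (8.40). Among the ZT4 points of Dbp, Tef, Nfil3 and Arntl, the open one lies nearest to the ZT0 points. For Dbp that point (7.07) is still nearer to the ZT20 mean (6.85) than to the ZT0 mean (5.75).

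The promoter of Per1 is printed because it holds 2 of the clock elements that were searched, the E-box CACGTG bound by CLOCK and BMAL1 and the D-box TTATGNAA, searched on both strands and written in capitals. It is the 300-base RefSeq window around the annotated start (GRCm38.p6, chr11:69098699-69098998, plus strand).
Per1: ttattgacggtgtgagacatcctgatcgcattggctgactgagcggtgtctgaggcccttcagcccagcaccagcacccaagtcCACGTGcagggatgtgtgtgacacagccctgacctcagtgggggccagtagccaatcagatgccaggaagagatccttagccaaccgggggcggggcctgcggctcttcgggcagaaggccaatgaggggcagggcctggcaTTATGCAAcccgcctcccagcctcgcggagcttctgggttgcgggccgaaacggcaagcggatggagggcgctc
Among 10436 tested genes with such a window, 10% held an E-box and 2.12% a D-box. The E-box was present in 4 of 8 clock repressor windows, those of Per1, Cry1, Ciart and Bhlhe41, and the D-box in those of Per1 and Per3. Of the genes called higher with a window, 13% held the E-box and 4.51% the D-box, and of those called lower 10.3% and 2.48%. A match describes letters and is no evidence of binding.

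The other pathways were read from 33 gene lists, given here by the counts of their measured members. Over all genes tested 3.6% were called higher and 2.65% lower, and lists near these shares are not set apart from other genes. The widest movement was in the heat shock chaperones.

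**Figure D3:**
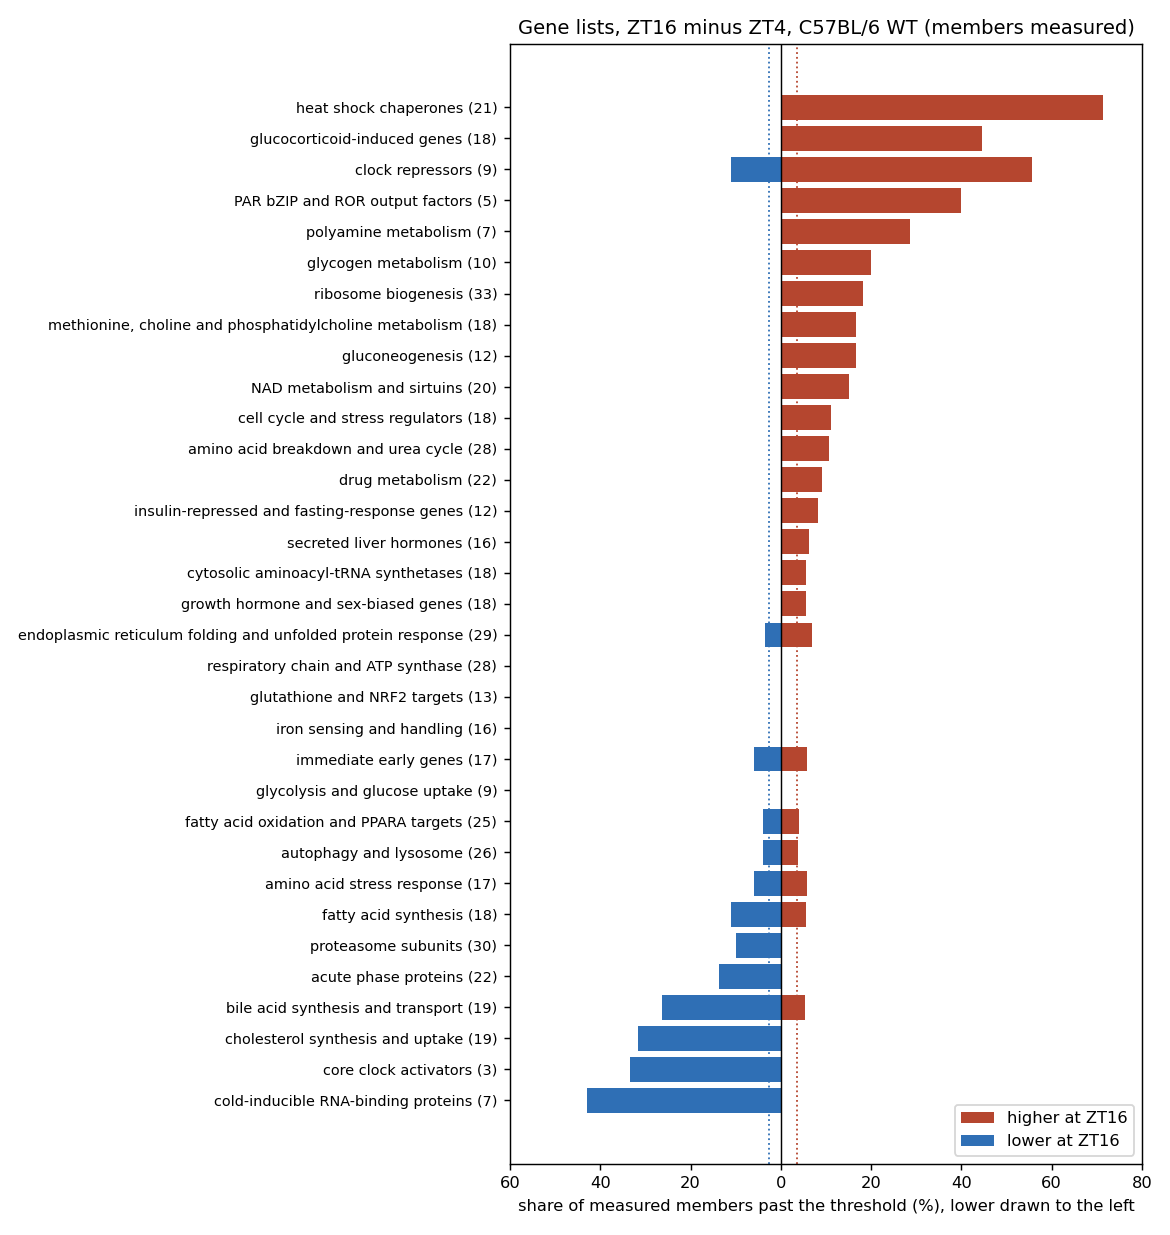
Share of the measured members of each of 33 gene lists that were called in C57BL/6 WT livers, higher at ZT16 drawn to the right and lower at ZT16 to the left, in percent, with the number measured in brackets. Dotted lines mark the shares over all genes tested, 3.6% higher and 2.65% lower. Heat shock chaperones (15 of 21 higher), glucocorticoid-induced genes (8 of 18 higher) and clock repressors (5 of 9 higher) reach farthest right. Farthest left are cold-inducible RNA-binding proteins (3 of 7 lower, listed splicing factors included), core clock activators (1 of 3 lower) and cholesterol genes (6 of 19 lower).

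Heat shock factor 1 is a transcription factor that switches on cytosolic chaperones when proteins unfold, and in mouse liver it follows the daily rise of body temperature in the active phase. Of 21 measured chaperones and co-chaperones, 15 rose at ZT16 and 0 fell, and 20 had a higher mean at ZT16. The median difference was 0.48. Hspa1b, an inducible HSP70, read 8.92, 9.22 and 8.83 at ZT16 and 6.95, 6.20 and 5.72 at ZT4. The rise was 2.70 ± 0.41, 6.49-fold, with an adjusted p of 8e-05 in limma's test. Its near-identical copy Hspa1a has no probe set of its own with 1 symbol here, so the signal may come from either. Hsph1 (HSP110), a nucleotide exchange factor of HSP70, read 9.17, 9.81 and 9.43 at ZT16 and 8.36, 8.01 and 7.67 at ZT4, a rise of 1.45 ± 0.21. Dnajb1 (HSP40), which feeds clients to HSP70, read 8.31, 8.44 and 8.26 at ZT16 and 7.26, 7.55 and 7.01 at ZT4, a rise of 1.06 ± 0.18. Thus Hspa1b and these helpers, Hsph1 and Dnajb1, were higher in every array at ZT16 than in any at ZT4. The co-chaperone Bag3 was 2.03-fold higher and the small chaperone Hspb1 1.95-fold, and both calls were lost without ZT4 replicate 3 (adjusted p of 0.060 and 0.095, limma). That of Hspb1 was lost without each single array other than ZT16 replicate 1, and its second probe set gave 0.19. Of the HSP90 machine, Hsp90aa1 rose by 0.58 ± 0.15, and its partners Stip1, Ahsa1, Ahsa2, Fkbp4 and Chordc1 by 0.44, 0.36, 0.56, 0.46 and 0.77. The constitutive Hspa8 rose by 0.48 ± 0.09 at a high mean level (12.33 at ZT16 and 11.85 at ZT4). Members that were not called included the mitochondrial chaperonin pair Hspd1 (0.05 ± 0.08) and Hspe1 (0.24 ± 0.08), and Hspa4 (−0.16 ± 0.08). Without ZT4 replicate 3, 9 members rose and 1 fell. The fall was Hspa4 (−0.27), and Hspe1 was among the risers (0.36), whereas Bag3, Chordc1, Dnajb4, Hsp90aa1, Hspa2, Hspb1 and Stip1 were no longer called. Without ZT16 replicate 2, 10 rose.

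The curve of Hspa1b over the day had means of 7.87 (ZT0), 6.29 (ZT4), 6.81 (ZT8), 7.76 (ZT12), 8.99 (ZT16) and 7.30 (ZT20). ZT16 was its highest and ZT4 its lowest mean. Hsph1 was also highest at ZT16 (9.47) and was lowest at ZT8 (7.67). The promoter window of Hspa1b (GRCm38.p6, chr17:34959189-34959488, minus strand, written 5′ to 3′ on that strand) is printed because it holds the heat shock element GAANNTTC, in capitals.
Hspa1b: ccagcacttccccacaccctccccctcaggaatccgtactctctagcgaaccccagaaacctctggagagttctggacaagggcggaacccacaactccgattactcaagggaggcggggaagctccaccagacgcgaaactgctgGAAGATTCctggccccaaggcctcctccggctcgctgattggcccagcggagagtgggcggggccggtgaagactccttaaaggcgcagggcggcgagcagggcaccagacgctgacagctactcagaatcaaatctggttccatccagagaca
This element was found in 8 of 18 windows of the measured chaperones (44.4%) and in 5.71% of all tested genes with a window. The 8 were Hspa1b, Hsph1, Hspb1, Hspb8, Hspe1, Bag3, Chordc1 and Fkbp4. Of these 6 were called and Hspb8 and Hspe1 were not, a share like that of the whole list (15 of 21). Among all genes called higher with a window 6.77% held the element, and among those called lower 4.96%.

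Cold-inducible RNA-binding proteins such as Cirbp respond to body temperature in the opposite sense, and some splicing factors were listed with them. Rbm3, another cold-inducible gene, had no probe set with 1 symbol. A part of temperature in these values was not tested. Of 7 measured, 3 fell at ZT16 and 0 rose. Cirbp read 6.95, 6.75 and 6.81 at ZT16 and 7.45, 7.94 and 7.91 at ZT4, a fall of −0.93 ± 0.18 (adjusted p of 0.0017, limma). Its highest mean of the day was at ZT4 (7.77). Srsf5, a serine and arginine-rich splicing factor, fell by 0.52, with 9.81, 9.82 and 9.79 at ZT16 and 10.17, 10.47 and 10.35 at ZT4. Rbm39, a splicing coactivator, fell by 0.27, and that call was lost without ZT16 replicate 3 or ZT4 replicate 2.

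**Figure D4:**
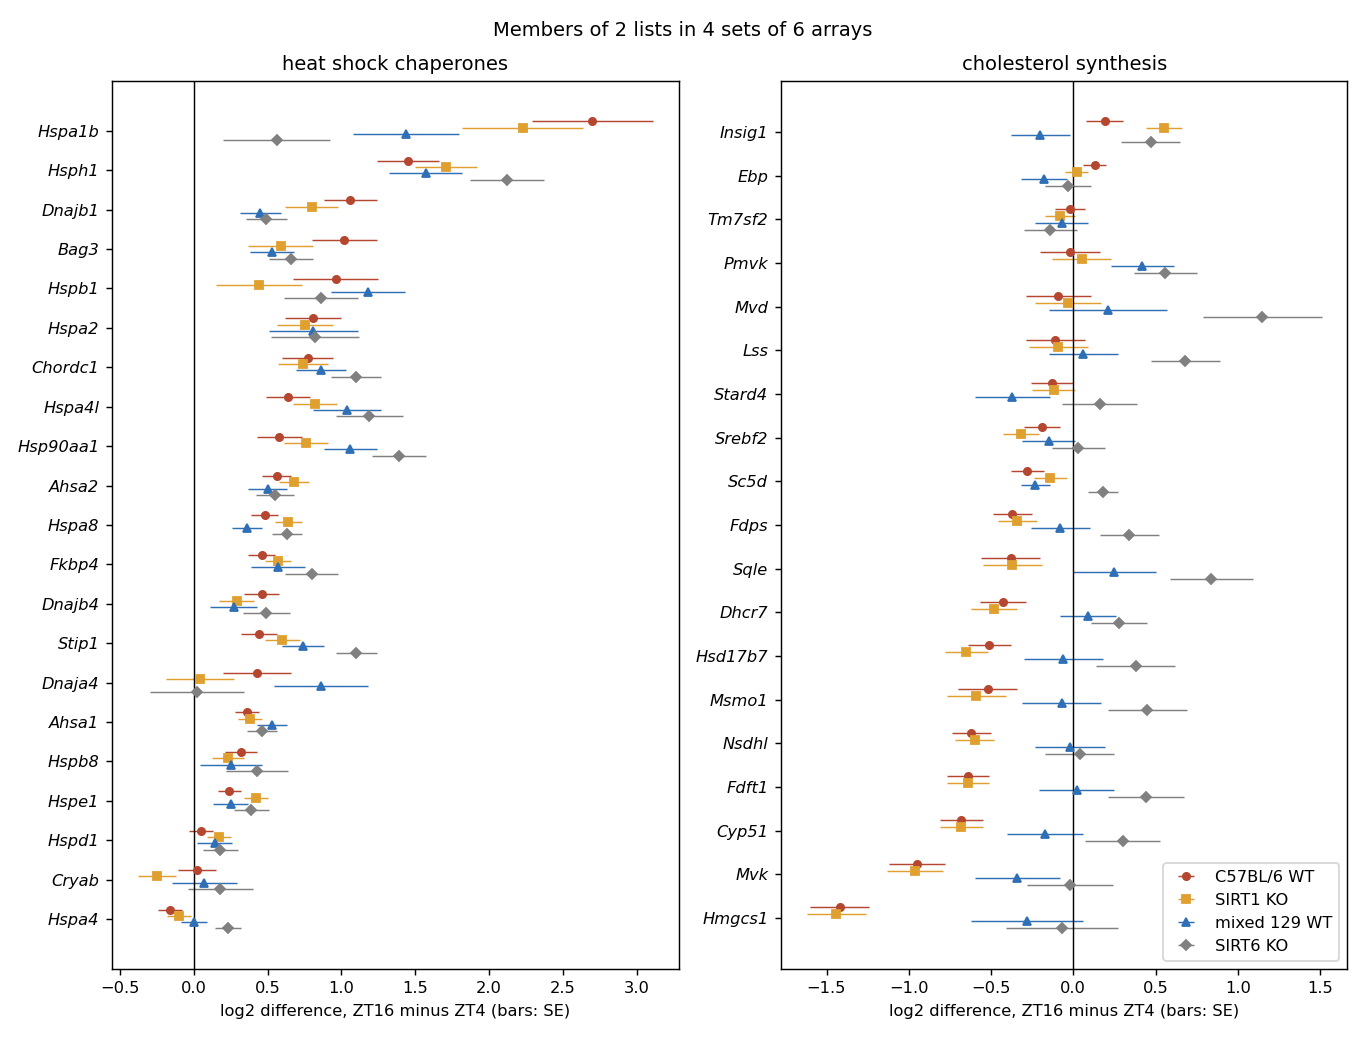
Log2 difference, ZT16 minus ZT4, of each measured heat shock chaperone (left) and cholesterol gene (right) in 4 sets of 6 arrays, with bars of 1 SE. The chaperones lie right of 0 in nearly all sets, with list medians of 0.48 in C57BL/6 WT, 0.59 in SIRT1 KO, 0.53 in mixed 129 WT and 0.56 in SIRT6 KO arrays. The list median of the cholesterol genes lies left of 0 in both C57BL/6 sets (−0.37 in WT and −0.34 in SIRT1 KO arrays). It lies near or right of 0 in mixed 129 WT (−0.07) and SIRT6 KO arrays (0.30). Of the 19 cholesterol genes, 17 lie left of 0 in C57BL/6 WT.

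Glucocorticoids, which peak around the onset of activity in mice, act through the receptor Nr3c1. Of 18 genes that they induce, 8 rose at ZT16 and 0 fell, with a median difference of 0.36. Usp2 and Per1, described above, belong to this list, and Per1 also counts among the clock repressors. Tsc22d3 (GILZ), an anti-inflammatory leucine zipper protein, read 9.38, 9.24 and 8.85 at ZT16 and 7.43, 7.91 and 7.85 at ZT4, a rise of 1.42 ± 0.17. Fkbp5, which restrains the receptor, read 7.90, 7.72 and 8.26 at ZT16 and 6.79, 6.29 and 6.87 at ZT4, a rise of 1.31 ± 0.18 (adjusted p of 1.6e-05, limma). The arrays of the 2 times did not overlap for either gene. Sgk1, a kinase, Zbtb16 (PLZF), a zinc finger repressor, Errfi1, an inhibitor of the EGF receptor, and Ddit4 (REDD1), an inhibitor of mTORC1, rose by 0.89, 1.04, 0.35 and 1.04. The receptor gene itself (0.14 ± 0.07), the tyrosine aminotransferase gene Tat (0.31 ± 0.12) and the metallothioneins Mt1 (0.08 ± 0.67) and Mt2 (0.12 ± 0.94) were not called. The metallothioneins had the widest errors of the list. Without ZT4 replicate 3, 6 members rose, and Ddit4 (0.94, adjusted p of 0.15, limma) was among those lost. The call of Ddit4 was also lost without ZT4 replicate 1, ZT16 replicate 1 or ZT16 replicate 2.

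Immediate early genes respond to a stimulus within minutes and can mark the handling of an animal. Of 17 measured, 1 rose and 1 fell, and the fall was Egr1 as described. Dusp1, a phosphatase that switches off MAP kinases, read 9.87, 9.76 and 9.58 at ZT16 and 8.20, 8.45 and 8.47 at ZT4, a rise of 1.37 ± 0.25 (2.58-fold, adjusted p of 0.00094, limma). Unlike Egr1, it was tight at both times. Its promoter window (GRCm38.p6, chr17:26508423-26508722, minus strand, 5′ to 3′ on that strand) is printed for the cAMP element TGACGTCA, in capitals, the site of CREB. The window also holds the E-box CACGTG, left here in small letters.
Dusp1: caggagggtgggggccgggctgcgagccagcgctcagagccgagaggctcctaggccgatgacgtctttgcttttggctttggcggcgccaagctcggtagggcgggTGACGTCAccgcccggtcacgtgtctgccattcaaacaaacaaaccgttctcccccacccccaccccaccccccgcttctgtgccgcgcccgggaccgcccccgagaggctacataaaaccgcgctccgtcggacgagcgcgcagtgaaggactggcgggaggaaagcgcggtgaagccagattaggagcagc
That element was found in 5.01% of the windows of genes called higher, in 2.84% of those called lower and in 2.99% of all. Of 12 fasting-response and insulin-repressed genes, 1 was called, Sik1, a salt-inducible kinase and a CREB target. It read 10.09, 10.40 and 9.73 at ZT16 and 8.21, 8.77 and 9.60 at ZT4 (adjusted p of 0.043, limma), and the call was lost without ZT4 replicate 1 or 2 or ZT16 replicate 1 or 2.

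Cholesterol is made from acetyl-CoA through mevalonate and squalene, and SREBP2 raises the whole pathway when sterols are low. Of 19 measured genes, 6 fell at ZT16 and 0 rose, 17 had a lower mean at ZT16, and the median difference was −0.37. Hmgcs1, which makes HMG-CoA at the entry to the pathway, read 10.82, 10.49 and 10.59 at ZT16 and 11.92, 12.18 and 12.07 at ZT4. The fall was −1.42 ± 0.18 (2.68-fold, adjusted p of 4.3e-06, limma) and the same without ZT4 replicate 3. Mvk, mevalonate kinase, read 8.50, 7.80 and 8.09 at ZT16 and 8.96 to 9.28 at ZT4, a fall of −0.95 ± 0.17. For both of these early enzymes every array at ZT16 was below every array at ZT4. Fdft1 (squalene synthase), Cyp51 (lanosterol demethylase), Nsdhl and Hsd17b7 (demethylation and reduction of sterols) fell by 0.64, 0.68, 0.62 and 0.51. Fdps (−0.37 ± 0.12), Msmo1 (−0.52 ± 0.18) and Dhcr7 (−0.43 ± 0.14) had lower means at ZT16 but were not called. Srebf2 itself differed by −0.19 ± 0.11, and Insig1, which retains SREBP in the endoplasmic reticulum, by 0.19 ± 0.11. Leaving out 1 array gave 5 to 8 falls. Hmgcs1 had like means at ZT0 (12.08) and ZT4 (12.06) and its lowest mean at ZT16 (10.63).

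The promoter window of Hmgcs1 (GRCm38.p6, chr13:119690101-119690400, plus strand) is printed because it alone, of 15 windows of the cholesterol genes, held the sterol element in the form searched, TCACNCCAC, here in capitals.
Hmgcs1: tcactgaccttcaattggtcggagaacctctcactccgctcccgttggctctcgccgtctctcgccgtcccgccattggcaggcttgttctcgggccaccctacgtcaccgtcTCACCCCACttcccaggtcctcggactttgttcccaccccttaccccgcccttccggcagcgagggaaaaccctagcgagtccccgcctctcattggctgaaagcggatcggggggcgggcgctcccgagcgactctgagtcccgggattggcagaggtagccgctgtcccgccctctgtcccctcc
Over all tested genes with a window, 1.15% held it. The published elements vary in their letters, and no match says only that these letters are absent from the window.

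Fatty acid synthesis moved in part. Of 18 genes, 1 rose and 2 fell. Thrsp rose as described. Insig2, the second SREBP anchor, fell by 0.76, with 10.34, 10.23 and 10.23 at ZT16 and 10.80, 11.35 and 10.92 at ZT4. Elovl5, an elongase of polyunsaturated fatty acids, fell by 0.46, a call lost without ZT4 replicate 2 or 3 or ZT16 replicate 1 or 3 (−0.33 without ZT4 replicate 3, adjusted p of 0.25, limma). The classical enzymes were not called, with Fasn at 0.38 ± 0.21, Acaca at 0.18 ± 0.17, Acly at −0.09 ± 0.26 and Scd1 at −0.06 ± 0.09. Of 25 genes of fatty acid oxidation, 1 rose and 1 fell, near the shares over all genes tested (3.6% higher and 2.65% lower). The list median was 0.01, and both called genes encode coats of lipid droplets. Plin5 read 8.91, 8.53 and 8.82 at ZT16 and 7.89, 8.11 and 8.24 at ZT4, whereas Plin2 read 10.41, 10.61 and 10.66 at ZT16 and 11.01, 11.18 and 10.99 at ZT4. The 2 perilipins thus moved in opposite directions, by 0.67 ± 0.16 and −0.50 ± 0.14, and the call of Plin2 was lost without each array other than ZT16 replicate 3 and that of Plin5 without replicate 1 of either time.

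Bile acids are made from cholesterol in the liver and exported to bile. Of 19 genes, 1 rose and 5 fell. Cyp7a1, the rate-limiting enzyme, read 11.87, 11.88 and 11.84 at ZT16 and 11.39, 10.25 and 11.15 at ZT4. The ZT16 arrays were nearly equal and the ZT4 arrays spread widely, so that the rise of 0.93 ± 0.29 (adjusted p of 0.046, limma) was 0.59 without ZT4 replicate 2 (adjusted p of 0.26, limma) and its call was lost without each other array but ZT4 replicate 1. Nr0b2 (SHP), the receptor that represses Cyp7a1, read 9.32, 9.46 and 8.46 at ZT16 and 10.32, 10.37 and 9.95 at ZT4, a fall of −1.13 ± 0.27 that lost its call without ZT16 replicate 3. Hsd3b7, the second step of synthesis, fell by 0.67, with 10.94 to 11.20 at ZT16 and 11.66, 11.77 and 11.72 at ZT4. Abcb11 (BSEP), the bile salt export pump, read 11.07, 11.33 and 11.19 at ZT16 and 11.79, 11.88 and 11.76 at ZT4, a fall of −0.61 ± 0.08 (adjusted p of 6.5e-06, limma). For both Hsd3b7 and Abcb11 all arrays at ZT16 lay below all at ZT4. Abcb4, the phospholipid exporter, fell by 0.36 (adjusted p of 0.046, limma, and lost without each array other than ZT4 replicate 3), and Amacr, a racemase of side-chain oxidation, fell by 0.30. Cyp8b1 (−0.42 ± 0.27), Cyp27a1 (−0.03 ± 0.10) and the receptor Nr1h4 (FXR, 0.05 ± 0.16) were not called.

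In glycogen metabolism, 2 of 10 genes rose and both act in synthesis. Ppp1r3b read 11.54, 11.43 and 11.37 at ZT16 and 9.49, 10.36 and 9.73 at ZT4. A second probe set of Ppp1r3b gave 1.75, beside 1.59 ± 0.26. Gys2, liver glycogen synthase, read 11.27, 11.68 and 11.71 at ZT16 and 10.98, 10.85 and 10.85 at ZT4, a rise of 0.66 ± 0.13 (adjusted p of 0.0013, limma). Both calls held without each array in turn. Glycogen phosphorylase Pygl (−0.15 ± 0.10) was not called. In gluconeogenesis 2 of 12 rose, Slc37a4, the glucose 6-phosphate carrier (0.64 ± 0.13), and the hepatocyte factor Hnf4a (0.28 ± 0.08, a call lost without each array other than ZT4 replicate 2). Pck1 (0.07 ± 0.19) and G6pc (0.05 ± 0.16), its committed enzymes, differed by less than their errors. Of 9 genes of glycolysis limma called 0, with 1 at an unadjusted p under 0.05 (19.7% of all genes tested were under it). Pklr, liver pyruvate kinase, differed by 0.32 ± 0.35.

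Nampt is the rate-limiting enzyme of NAD salvage and a clock target. It read 10.49, 10.56 and 10.62 at ZT16 and 9.23, 9.25 and 9.22 at ZT4. The rise was 1.32 ± 0.16 (2.50-fold, adjusted p of 1.8e-06, limma), and the ZT4 arrays agreed within 0.03. Nadk, which phosphorylates NAD, rose by 0.35 ± 0.07. Sirt1 rose by 0.40 ± 0.09, with 8.93, 8.89 and 8.96 at ZT16 and 8.46, 8.72 and 8.40 at ZT4, and its call was lost without ZT4 replicate 3 (0.33, adjusted p of 0.054, limma). The other 17 genes of NAD metabolism and the sirtuin family were not called, Sirt6 among them (−0.06 ± 0.12).

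In polyamine synthesis, Srm, spermidine synthase, read 10.16, 10.28 and 10.53 at ZT16 and 9.61, 9.55 and 9.01 at ZT4, a rise of 0.93 ± 0.13, and Odc1, ornithine decarboxylase, rose by 0.53 ± 0.12, a call lost without ZT16 replicate 2. These were 2 of 7 measured. Of 33 ribosome biogenesis genes 6 rose and 30 had a higher mean at ZT16, with a median of 0.18. The largest were Nolc1, a nucleolar phosphoprotein (0.89 ± 0.21), and Rrp12 (0.61 ± 0.14), Nop2 (0.60 ± 0.18), Nop56 (0.59 ± 0.16) and Bysl (0.58 ± 0.17), which process ribosomal RNA or assemble subunits. In all 5 the lowest array was ZT4 replicate 3, for example at 8.29 for Nolc1 beside 9.31 and 9.54 in the other ZT4 arrays. Other probe sets of Nop56, both dimmer, gave 0.03 and 0.32. Without that array 1 gene of the list rose, without ZT16 replicate 2 also 1, and without ZT16 replicate 3 there were 3. Of 18 cytosolic aminoacyl-tRNA synthetases, 1 rose, Farsa, which charges phenylalanine (0.46 ± 0.14), and that call was likewise lost without ZT4 replicate 3 (0.30, adjusted p of 0.29, limma) and without ZT16 replicate 2 or 3.

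In the endoplasmic reticulum list, 2 of 29 genes rose and 1 fell. The risers were Herpud1, a part of the degradation machine (0.55 ± 0.15), and Ppp1r15b, a subunit of the eIF2 alpha phosphatase (0.48 ± 0.11), and both calls were lost without ZT4 replicate 3 (adjusted p of 0.17 and 0.087, limma). The call of Herpud1 was also lost without ZT16 replicate 1 or 2. The lectin chaperone Calr fell by 0.28, a call lost without ZT4 replicate 1 or 2 or ZT16 replicate 1 or 3. Hspa5 (BiP), the main chaperone of this compartment, differed by 0.02 ± 0.11, and was not called. In the amino acid stress response, Ddit4 rose and Trib3, a pseudokinase, fell by 0.77, with 6.22, 6.42 and 5.74 at ZT16 and 6.90, 6.82 and 6.96 at ZT4. In amino acid breakdown and the urea cycle 3 of 28 rose, namely Asl (0.46 ± 0.14), Nags (0.37 ± 0.09) and Prodh (0.33 ± 0.10). The arrays of Asl and Prodh overlapped between the times and their calls were each lost without 4 single arrays, and a second probe set of Nags gave −0.07. In methionine and phosphatidylcholine metabolism 3 of 18 rose, Lpin1, a phosphatidate phosphatase (0.93 ± 0.28), Dgat2, the last step of triglyceride synthesis (0.37 ± 0.07), and Pcyt1a, the rate-limiting step of phosphatidylcholine synthesis (0.25 ± 0.08). Dgat2 was even across arrays, with 12.14, 12.13 and 12.13 at ZT16 and 11.70, 11.83 and 11.75 at ZT4, whereas the call of Lpin1 was lost without each array other than ZT16 replicate 2 and that of Pcyt1a without each array other than ZT4 replicate 2.

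Falls in the remaining lists were small. Of 30 proteasome subunits 3 fell, Psma1 by 0.38, Psmd11 by 0.35 and Psmd3 by 0.35, and 0 rose. The call of Psma1 was lost without ZT16 replicate 3 and that of Psmd11 without ZT16 replicate 1. Of 22 acute phase proteins 3 fell, Cp (ceruloplasmin) by 0.26, and Fga and Fgg (fibrinogen chains) by 0.24 and 0.20, and limma called 0 of them without ZT4 replicate 3 and 0 without ZT16 replicate 1. In autophagy 1 of 26 rose, Bnip3, a mitophagy receptor (0.65 ± 0.13), and 1 fell, Gabarapl1, an ATG8 protein (−0.52 ± 0.10). Both were tight, Gabarapl1 reading 11.41, 11.29 and 11.48 at ZT16 and 11.81, 11.93 and 12.01 at ZT4. Of 22 drug metabolism genes 2 rose, Cyp2a5, which oxidises coumarin (1.06 ± 0.24), and Sult1d1, a sulfotransferase (0.48 ± 0.15), whose call was lost without each array other than ZT4 replicate 3. Without ZT16 replicate 2 there were 0 calls here, and without ZT4 replicate 3 there were 3. Of 18 cell cycle and stress regulators Wee1 and Tob1 (0.49 ± 0.12), an antiproliferative gene, rose, and the call of Tob1 was lost without ZT4 replicate 1 or ZT16 replicate 2. Of 18 genes regulated by growth hormone or sex, 1 rose, Nat8 (0.76 ± 0.23), which acetylates cysteine conjugates, and its call was lost without ZT4 replicate 3 (0.48, adjusted p of 0.31, limma), ZT4 replicate 1 or ZT16 replicate 1 or 3. Of 16 genes listed under secreted liver hormones 1 rose, again Lpin1, which is no secreted protein. Of 28 respiratory chain genes, 13 glutathione genes and 16 iron genes limma called 0. At an unadjusted p under 0.05 were 6, 3 and 4 of them, beside 19.7% of all genes tested. Their largest differences were 0.20 ± 0.08 (Ndufa8), 0.55 ± 0.23 (Nqo1) and 1.08 ± 0.68 (Hamp2).

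Where in the day the called genes have their extremes was read in the 18 arrays labelled SIRT1 KO. Their values do not enter the WT differences, but they share the estimate of spread behind the calls, and with the 18 WT arrays alone 534 genes were called. Of the 479 genes higher at ZT16 in WT, the highest of the 6 KO means fell at ZT16 for 211 (44.1%) and at ZT12 for 185 (38.6%), against 15.3% and 18.3% of all genes tested. Their lowest KO mean was at ZT4 for 188 (39.2%) and at ZT8 for 144 (30.1%), against 9.36% and 19.9% of all genes. Of the 352 lower genes, the highest KO mean was at ZT4 for 217 (61.6%), against 24.1% of all genes, and the lowest was at ZT16 for 202 (57.4%), against 16.7% of all genes. The higher genes thus had their highest KO means mostly in the first 4 h steps of darkness, and the lower genes mostly at ZT4. The 2 other pairs of WT times that lie 12 h apart share no array with this one, though all come from 1 fit. ZT12 minus ZT0 called 1308 genes (9.83%) and ZT20 minus ZT8 called 890 (6.69%). The overlap with ZT12 minus ZT0 was 275 genes (33.1% of the 831 and 21% of the other list), 244 in the same direction. The overlap with ZT20 minus ZT8 was 165 genes (19.9% and 18.5%), 128 in the same direction. The remaining 459 of the 831 (55.2%) were called in neither of these pairs.

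The other 3 sets of ZT16 and ZT4 arrays share no array with the C57BL/6 WT set, though the SIRT1 KO arrays were fitted with it. In arrays labelled SIRT1 KO, 469 genes of the 479 higher ones and 348 of the 352 lower ones had the same direction, against 68.2% of all genes tested with a common direction. Of the 1089 genes called there (8.18%), 463 were shared, 55.7% of the WT list and 42.5% of the KO list, and 0 of them moved in opposite directions. In mixed 129 WT arrays 419 and 330 had the same direction, against 58.4% of all genes, and 91 of the 183 called there (1.38%) were shared, 11% of the C57BL/6 list and 49.7% of the mixed 129 list. In arrays labelled SIRT6 KO 436 and 322 had the same direction, against 65.1% of all genes, and 234 of the 587 called there (4.41%) were shared, 28.2% of the C57BL/6 list and 39.9% of the SIRT6 KO list.

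A core of 70 genes was called in all 4 sets, 30 higher and 40 lower, each in 1 direction throughout. Among the higher were Usp2, Wee1, Cry1, Hsph1, Nampt, Tsc22d3, Srm, Thrsp and Ppp1r3b, and among the lower Nr1d1, Spata22, Cirbp, Srsf5, Hsd3b7, Gabarapl1 and Psmd11. Nr1d1 differed by −3.27 in C57BL/6 WT, −3.71 in SIRT1 KO, −4.13 in mixed 129 WT and −4.16 in SIRT6 KO arrays. Nmrk1, a nicotinamide riboside kinase that no list held, was named for its place in this core after its values were seen, with 1.02, 1.16, 1.17 and 1.37 in the same order. Heat shock chaperones rose in 15 of 21 cases in C57BL/6 WT, 13 in SIRT1 KO (2.3% of all genes tested) and 8 in mixed 129 WT arrays (0.406%). Cholesterol genes fell in 6 of 19 cases in C57BL/6 WT, 8 in SIRT1 KO (5.88% of all genes, and 1 rose) and 0 in mixed 129 WT arrays (0.969%). Hmgcs1 differed by −1.42, −1.44 and −0.28 in these sets in that order.

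**Figure D5:**
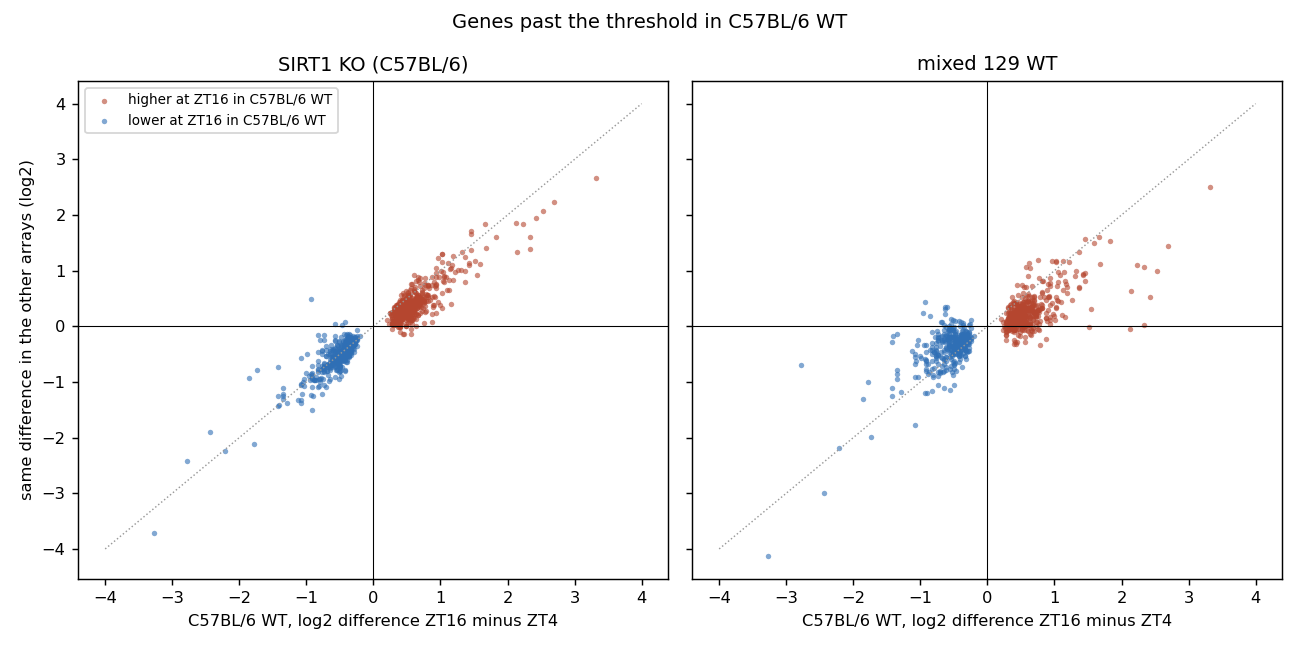
Log2 difference, ZT16 minus ZT4, of the 831 genes called in C57BL/6 WT (x axis) against the same difference in SIRT1 KO arrays (left) and mixed 129 WT arrays (right), red for genes higher and blue for genes lower at ZT16 in C57BL/6 WT, with a dotted line of equality. Medians of the higher genes are 0.52 in C57BL/6 WT, 0.35 in SIRT1 KO and 0.21 in mixed 129 WT arrays, and part of such a drop follows from choosing the genes by their values on the x axis.

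Whether the ZT16 minus ZT4 difference itself depended on the SIRT1 genotype label or on the WT set was tested gene by gene. The WT sets differ in background and also in cohort, each having been collected beside its own KO arrays. A difference between them cannot tell background from cohort. For SIRT1 KO minus WT, limma called 0 of 13308 genes, with 577 at an unadjusted p under 0.05 (4.34%) and a smallest adjusted p of 0.98. For C57BL/6 WT minus mixed 129 WT, limma called 0, with 1050 at an unadjusted p under 0.05 (7.89%). The nearest was Npas2, with −2.78 in C57BL/6 WT and −0.69 in mixed 129 WT arrays, a difference of −2.09 ± 0.41 (adjusted p of 0.055, limma). Ptch1, the Hedgehog receptor, differed by 0.56 in C57BL/6 WT and −0.20 in mixed 129 WT arrays (0.76 ± 0.15, adjusted p of 0.055, limma). With a block for the replicate number both passed (adjusted p of 0.045 each, limma), and with no filter on low values Npas2 did (0.044) and Ptch1 did not (0.067). These genes are named for being nearest to the threshold, after their values were seen. Sirt1 differed by 0.40 in C57BL/6 WT, 0.00 in SIRT1 KO and −0.25 in mixed 129 WT arrays, and the difference between the WT sets was 0.65 ± 0.15 (adjusted p of 0.22, limma). Per3 differed by 1.52 in C57BL/6 WT and −0.02 in mixed 129 WT arrays (adjusted p of the difference 0.26, limma), and Ciart by 2.12 and −0.05 in the same order (0.37).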

How the data were processed

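Total RNA of mouse liver was measured on single-colour Affymetrix arrays. Per the submitters' processing notes, the arrays went through Affymetrix Expression Console 1.1.1 and PLIER 2.0, and their settings for normalization and the genome build were not given in the sources used here. What the authors deposited is a table of probe set intensity, linear by the range of its values. All 72 columns were matched to samples by name, and groups and replicate numbers come from the sample titles.

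Among 41345 probe sets, 1 gene symbol was given for 23521, several for 1814 and none for 16010, and the first kind alone was named. Of these 23328 matched RefSeq by Entrez ID. For the 1082 of 22180 genes read by more than 1 probe set, the brightest by its mean over 72 arrays was taken. Values were taken as log2(intensity + 16), and the lowest 40% of genes by that mean were left out (13308 tested). The 36 arrays of the C57BL/6 WT and SIRT1 KO mice were fitted as 12 group means with limma 3.58.1 in R 4.3.3 (empirical Bayes with a trend) and contrasts adjusted by Benjamini-Hochberg, with an adjusted p under 0.05 as the threshold. The other cohort was fitted alone, and the difference between WT sets over all 72 arrays as 24 group means, each difference taken within its cohort, because the cohorts may have been normalized apart. The steps were tested on simulated data. Promoter windows are 300 bases from RefSeq (GRCm38.p6), found for 10436 tested genes.

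The genes named are the measured clock genes, the 12 highest and 12 lowest called differences whose groups do not overlap, with predicted genes counted and not named, and up to 5 called members of each of 33 lists, or the largest difference where none was called. Other list members were named after their values were seen. The comparison, the lists and these rules were chosen with earlier results of these data known. Alternatives covered the scaling, the pseudocount, the filter, the arrays fitted, a replicate block, array weights and each array left out. Replicate numbers did not pair the arrays: deviations from the group means of arrays of one number correlated at −0.32, −0.11 and −0.30.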

Additional observations from a re-analysis of the deposited data

How the results depend on the processing

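The main counts, 831 called genes with 479 higher and 352 lower, were recomputed under 20 alternatives, and the cause of each shift was not tested beyond what the alternative itself changes. Quantile normalization gave 1193 (589 higher and 604 lower), and centring the array medians gave 691 (494 and 197), so the split depends on scaling although the median of all genes was −0.004 as deposited and −0.007 and 0.033 under these scalings. A fit of the 18 WT arrays alone gave 534 (316 and 218), the 6 arrays alone 225 (128 and 97, and 189 at 1.5-fold or more against 314), and a threshold of 0.01 gave 390 (232 and 158). Without 1 array the calls ranged from 425 to 840, the higher from 202 to 634, the lower from 188 to 353 and those of 1.5-fold or more from 221 to 371. In mixed 129 WT arrays, 183 calls became 279 with centred medians and 115 with no filter. The replicate block gave 843 calls, 1080 in SIRT1 KO and 188 in mixed 129 WT arrays, and the difference between the WT sets called 2 genes with it and 2 with no filter, against 0. With the block, Cry2 was called and Cyp3a25, Cyp7a1 and Sik1 lost their calls. Signs turned only for genes that were not called. Dbp was −0.01 at a pseudocount of 64 and −0.48 with array weights, and −0.66 to 0.54 without 1 array. Arntl was 0.29 with array weights and −0.45 to 0.28 without 1 array. Without 1 array Bhlhe41 ranged from −0.68 to 0.14, Nfil3 from −0.01 to 0.55 and Pklr from −0.03 to 0.51. Of 101 named genes, 69 kept their side of the threshold and their direction without ZT4 replicate 3, and 75 to 85 without another single array. With the 6 arrays alone 61 did so, and with all 72 arrays in the fit 76. Among the leading genes Acot3 and Depp1 lost their calls in the fit of 72 arrays (adjusted p of 0.088 and 0.051, limma). Arrays of this number limit what can be called.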

Other observations

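Probe sets that carry no gene symbol or several were tested in the same way. Of 6780 such probe sets above the filter, 89 were called at ZT16 against ZT4 in C57BL/6 WT livers (1.31%), 65 higher and 24 lower. They are not named here. Among the called genes, 49 of 831 carry predicted names.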
